A study of Mus musculus with 2 samples.

Results

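The 10 genes described here direct how mitochondria are made, joined, divided and cleared. They are Ppargc1a and Tfam for biogenesis, Opa1, Mfn1 and Mfn2 for fusion, Dnm1l for fission, and Pink1, Bnip3, Bnip3l and Fundc1 for mitophagy. They were taken by symbol from the feature list that both count matrices share, where all 10 were found among 32286 features. The data come from the mouse optic cup, with 1 single-cell library per group made by droplet capture and 3' tagging (10x Genomics). In the group named here by its label as sponge, Abca4KO mice received an AAV2.8 vector with a miR-181a/b sponge, a transcript meant to hold these microRNAs away from their targets. In the group labelled GFP, Abca4KO mice received AAV2.8-GFP. Both groups are thus labelled as lacking Abca4, the photoreceptor transporter whose loss models Stargardt disease, and no wild-type or uninjected eye was used here. Per the series, each mouse had the sponge in 1 eye and the control vector in the other, injected under the retina at 2 months of age and collected 4 months afterwards, whereas the age in the sample labels is 4 months. The sources used here do not give how many mice were pooled.

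Mitochondrial content is set by a balance of synthesis and removal. The coactivator PGC-1α (Ppargc1a) raises transcription of nuclear genes for mitochondrial proteins. TFAM, a protein of the mitochondrial nucleoid, packages the mitochondrial genome and acts as a factor in its transcription. Mitofusins (Mfn1, Mfn2) join outer membranes and OPA1 joins inner membranes, whereas the dynamin DRP1 (Dnm1l) constricts the organelle. Damaged mitochondria are marked for autophagy by the kinase PINK1, which phosphorylates ubiquitin on their surface, or by the outer-membrane receptors BNIP3, NIX (Bnip3l) and FUNDC1. Photoreceptor inner segments are packed with mitochondria, and loss of OPA1 function causes an inherited optic atrophy. The comparison between the libraries addresses how these genes stand in eyes given a miR-181 sponge.

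The 2 microRNAs that the sponge is named for share their seed, bases 2 to 8, printed in capitals in the mature sequences below (RefSeq, GRCm38.p6). Each is made from 2 loci, on chromosomes 1 and 2, and the copies on chromosome 1 lie at chr1:137966468-137966490 for miR-181a-5p and chr1:137966650-137966673 for miR-181b-5p, both on the plus strand.
mmu-miR-181a-5p: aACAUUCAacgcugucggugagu
mmu-miR-181b-5p: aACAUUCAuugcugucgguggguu
The match to this seed, TGAATGT, was searched on the transcript strand in the longest annotated 3' UTR of each gene (GENCODE M21, mm10). Of the 10 genes, 2 held it, each once, and the sites are shown because they are where either microRNA could pair with a transcript described here. In the sites below the seed match is in capitals.
Tfam: gcttaagagataaaaTGAATGTattactca
Mfn2: gtcacgtagtcccagTGAATGTtgtgttct
The Tfam match, an 8mer, lies at chr10:71225663-71225669 and the Mfn2 match, a 7mer-m8, at chr4:147873920-147873926, both on the minus strand of mm10. The UTRs searched were 3095 bases long for Tfam and 1790 bases for Mfn2, against a median of 955 bases over 21067 genes, of which 3443 (16.3%) held the match. The letters alone do not show that a site is used.

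The library labelled sponge held 132067896 UMIs in 23267 barcodes and the library labelled GFP 123040365 UMIs in 39461 barcodes, and 290 barcode sequences occurred in both. After filtering, 23200 cells at a median of 2980.5 UMIs remained in the library labelled sponge and 39285 cells at a median of 2415 UMIs in the library labelled GFP. The added eGFP sequence had 5484 UMIs in the library labelled sponge and 12 in the library labelled GFP, so the eGFP counts do not bear out the labels, on which every direction below rests. The libraries are called sponge and GFP below, by their labels alone. The sources used here do not give whether the sponge vector also carries eGFP. Clusters were named as resembling a cell class from marker genes, and 13 classes with at least 50 cells in each library were compared. They include fibroblasts, melanocytes and ocular surface epithelium, so the libraries reach beyond the neural retina and the retinal pigment epithelium (RPE). The bipolar class was led by rod bipolar genes, the amacrine class also held horizontal and ganglion cell markers, and the microglia and macrophage class also held T cell and neutrophil markers. Müller glia were compared as a Gfap-low and a Gfap-rich cluster, split by their score on astrocyte markers, which include Gfap. That score was 0.84 in the Gfap-rich cluster, against 0.92 for Müller markers, and 0.34 in the Gfap-low cluster. Whether the Gfap-rich cluster also holds astrocytes was not tested. Of the kept cells, 40.7% in the library labelled sponge and 47.6% in the library labelled GFP lay in unnamed clusters. Since each group is a single library, replicate error is unknown and nothing was tested. Levels are counts scaled to 1000000 UMIs of a class (CPM) with 95% Poisson intervals, ratios are log2 values of sponge over GFP with exact binomial intervals, and both intervals cover counting error only.

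Of the 130 gene-by-class ratios, all had at least 20 counts over both libraries. None was at least 2-fold higher in the library labelled sponge, against 3.57% of all measured gene-by-class values, and 4 (3.08%) were at least 2-fold lower, against 9.40%. The 4 were Ppargc1a in bipolar cells, fibroblasts and ocular surface epithelium, and Bnip3 in ocular surface epithelium. Both shares lie below those of all genes, so large differences were not more frequent among these 10 genes than elsewhere. The sets were not matched for counts, and values near the limit of 20 counts pass 2-fold more easily by counting error. The median ratio was -0.14, against 0.01 for all genes of the same classes. Intervals lay above 0 for 16 ratios and below 0 for 43, and 71 included 0. Of all measured gene-by-class values, 21.3% had intervals above 0 and 22.4% below 0, where the width of an interval depends on the counts of the gene. The plot of ratios by gene and class shows the spread over classes.

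**Figure D1:**
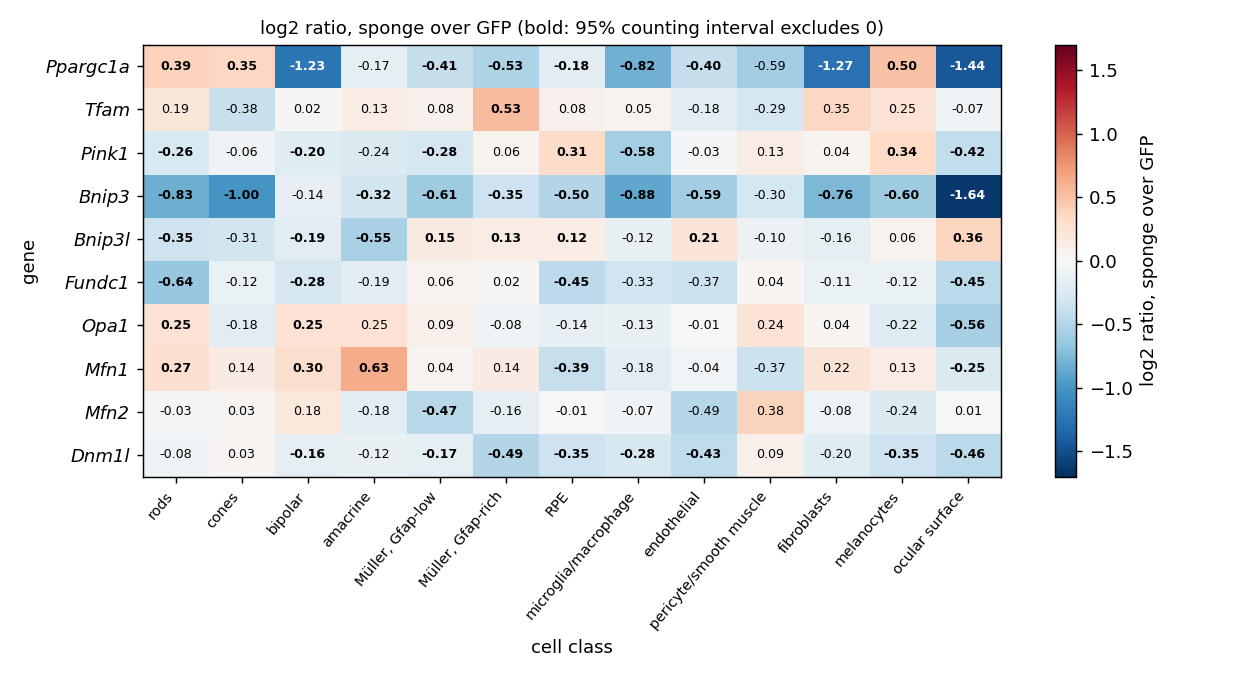
Log2 ratio of CPM, sponge over GFP, for each gene (rows) in each of 13 cell classes (columns), 1 library per group, with bold for 95% counting intervals that exclude 0. Bnip3 is below 0 in all 13 columns, and Ppargc1a runs from 0.50 in melanocytes to -1.44 in ocular surface epithelium.

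The libraries also differed in other properties. In 13 of 13 classes mitochondrial UMIs took a smaller share in the library labelled sponge, with differences of -5.93 to -1.08 percentage points. The median number of UMIs per cell was higher in 12 of 13, with RPE the exception at 3374.5 UMIs in sponge against 6474.5 UMIs in GFP. Markers of several other cell types also summed to less: in 11 of 11 classes other than rods and cones, the 10 rod markers summed to a lower CPM in the library labelled sponge, at 0.349 to 0.661 of its level in the library labelled GFP. The 7 melanocyte markers gave ratios of 0.317 to 0.760 in the 12 classes other than melanocytes, and the 9 RPE markers 0.0535 to 0.637 in the 12 classes other than RPE. Outside their own classes the rod markers summed to 1357 to 5512 CPM in the library labelled sponge and 3613 to 10120 CPM in the library labelled GFP, the melanocyte markers to 119 to 870.4 CPM in sponge and 325 to 1552 CPM in GFP, and the RPE markers to 133 to 752 CPM in sponge and 677 to 2492 CPM in GFP. The markers of bipolar cells were lower in 12 of 12 other classes. Other lists differed: the 5 erythrocyte markers were lower in 10 of 13 classes but higher in RPE, at 579 CPM in sponge and 57.6 CPM in GFP, in fibroblasts, at 1228 CPM in sponge and 416 CPM in GFP, and in Gfap-rich Müller glia, and the microglia and macrophage markers were lower in 10 of 12 other classes. None of the rod markers, and at most 1 of the melanocyte or RPE markers, was at 0 in a class. In their own classes the rod, melanocyte, RPE, bipolar and microglia and macrophage markers each summed to more in the library labelled sponge. Melanocytes had 27518 CPM in sponge and 20085 CPM in GFP, and rods 21093 CPM in sponge and 17518 CPM in GFP. RPE had 66922 CPM in sponge and 47365 CPM in GFP, and bipolar cells 19652 CPM in sponge and 12719 CPM in GFP. The part of all these differences in the gene ratios was not tested.

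**Figure D2:**
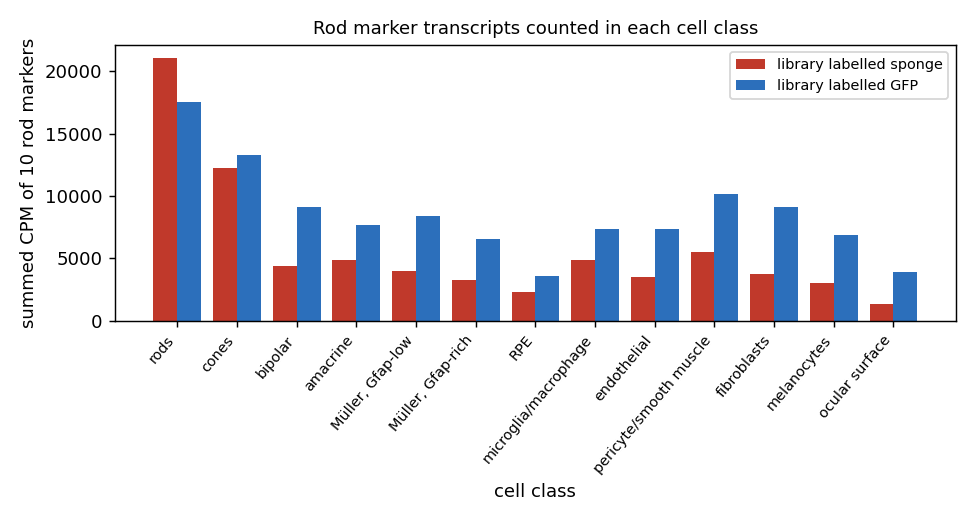
Summed CPM of 10 rod marker genes in each cell class, in the library labelled sponge (left bar) and the library labelled GFP (right bar), 1 library per group. In bipolar cells the sums were 4415 CPM in sponge and 9086 CPM in GFP, and rods themselves had 21093 CPM in sponge and 17518 CPM in GFP.

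Ppargc1a (ENSMUSG00000029167, mm10 chr5:51454250-51567726, minus strand) was the gene of the 10 with the widest range over classes. It stood at 833 CPM (802 to 865) in melanocytes of the library labelled sponge and 590.04 CPM (568 to 613) in those of the library labelled GFP. RPE followed with 223 CPM (212 to 234) in sponge and 252 CPM (241 to 264) in GFP. Rods had 173 CPM (166 to 179) in sponge and 132 CPM (124 to 141) in GFP, and cones 173 CPM (153 to 194) in sponge and 136 CPM (117 to 157) in GFP, intervals that overlap between rods and cones in each library. In the cone class the 10 rod markers summed to 12245 CPM in sponge and 13292 CPM in GFP. In rods they summed to 21093 CPM in sponge and 17518 CPM in GFP. The part of rod RNA in the cone levels was not tested. Pigment cells and photoreceptors had the highest levels of Ppargc1a in both libraries. Among the other 9 classes the level ran from 22.5 CPM in bipolar to 70.7 CPM in amacrine cells in the library labelled sponge, and from 50.7 CPM in endothelial to 79.5 CPM in amacrine cells in the library labelled GFP. Highest over lowest class was 37.0 in the library labelled sponge and 11.6 in the library labelled GFP. An unnamed cluster led by Oca2, Grem1 and Mlana held 232 CPM in sponge and 248 CPM in GFP, and another led by Grem1, Gpnmb and Ptx3 held 320.0 CPM in sponge and 331 CPM in GFP. These were chosen after their values were seen, as the other unnamed clusters stood at no more than 91.5 CPM in sponge and 94.9 CPM in GFP.

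The ratio of Ppargc1a differed in direction between classes. It was 0.50 (0.42 to 0.58) in melanocytes, 0.39 (0.28 to 0.49) in rods and 0.35 (0.08 to 0.62) in cones. In the named classes with high levels other than RPE the gene was thus higher in the library labelled sponge. Both rod clusters showed this, with 176 CPM in sponge against 134 CPM in GFP in the larger and 158 CPM in sponge against 118 CPM in GFP in the smaller. In the library labelled sponge the summed own markers of melanocytes, rods and RPE were also higher, as was every cone marker in cones. The part of this shift in the Ppargc1a ratios was not tested. RPE gave -0.18 (-0.28 to -0.08), and 0.02 when scaled to the median gene. The unnamed clusters with high levels were also not higher in sponge. They had 232 CPM in sponge and 248 CPM in GFP, and 320.0 CPM in sponge and 331 CPM in GFP. The ratio was below 0 in each of the other 9 classes, with intervals below 0 in 7 of them. Bipolar cells had 22.5 CPM (19.95 to 25.3) in sponge and 52.9 CPM (47.9 to 58.2) in GFP, a ratio of -1.23 (-1.45 to -1.01), where 10.1% of all measured genes were at least 2-fold lower. Fibroblasts had 29.3 CPM (24.3 to 35.04) in sponge and 70.6 CPM (62.8 to 79.1) in GFP, a ratio of -1.27 (-1.59 to -0.96), against 9.51% of genes. Ocular surface epithelium had 25.7 CPM (22.98 to 28.6) in sponge and 69.9 CPM (64.03 to 76.2) in GFP, a ratio of -1.44 (-1.65 to -1.24), where 23.0% of genes were at least 2-fold lower and the median gene had a ratio of -0.36. Scaled to the median gene there, the ratio of Ppargc1a was -1.09. In these 3 classes the melanocyte markers summed to 163 CPM in sponge and 364 CPM in GFP in bipolar cells, 169.8 CPM in sponge and 409 CPM in GFP in fibroblasts, and 419 CPM in sponge and 1225 CPM in GFP in ocular surface epithelium. The part of free RNA from cells rich in Ppargc1a was not tested. The microglia and macrophage class had 34.9 CPM (29.3 to 41.3) in sponge and 61.7 CPM (53.5 to 70.9) in GFP, a ratio of -0.82 (-1.15 to -0.50). The Müller clusters gave -0.41 (-0.60 to -0.22) where Gfap was low and -0.53 (-0.75 to -0.30) where it was rich.

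**Figure D3:**
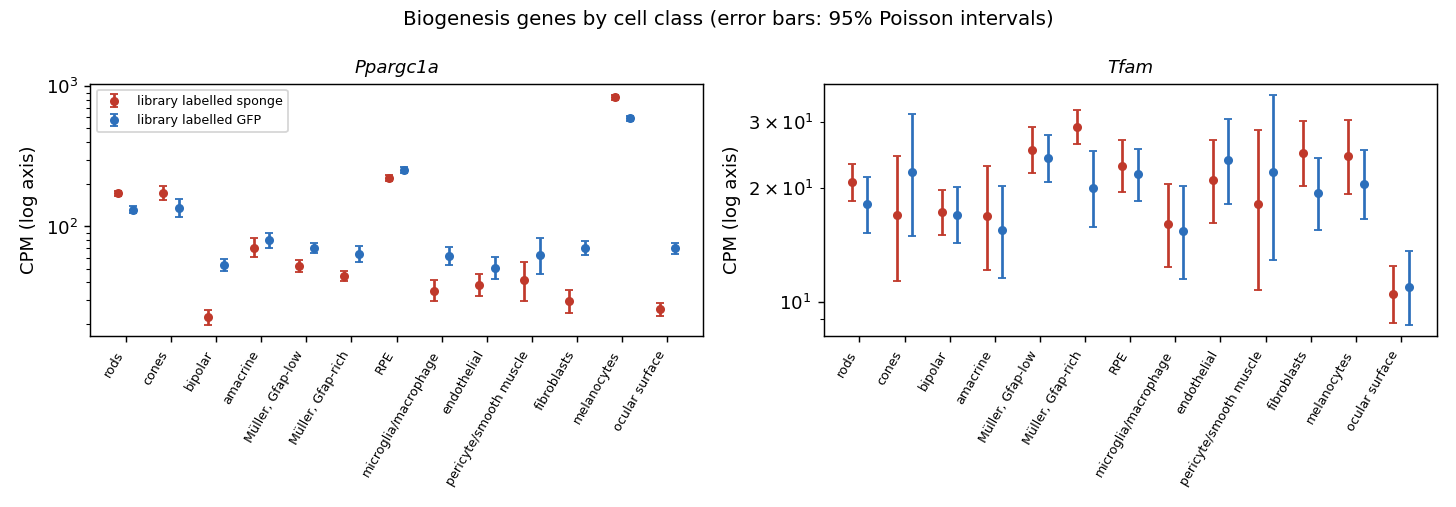
Ppargc1a and Tfam in each cell class as CPM on log axes, in the library labelled sponge (left point) and the library labelled GFP (right point), 1 library per group, with 95% Poisson intervals. Ppargc1a is highest in melanocytes at 833 CPM in sponge and 590.04 CPM in GFP, and the Tfam intervals of the libraries overlap in every class except Gfap-rich Müller glia.

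Tfam (ENSMUSG00000003923, mm10 chr10:71225464-71238280, minus strand) is the other biogenesis gene and a holder of a miR-181 seed match. Its highest over lowest class was 2.78 in the library labelled sponge and 2.20 in the library labelled GFP. It was highest in Gfap-rich Müller glia in the library labelled sponge at 29.1 CPM (26.2 to 32.3), against 20.04 CPM (15.7 to 25.2) in GFP, and this was the only one of 13 classes whose ratio interval excluded 0, at 0.53 (0.17 to 0.92). Gfap-low Müller glia had 25.4 CPM (21.9 to 29.1) in sponge and 24.04 CPM (20.7 to 27.7) in GFP. Rods had 20.7 CPM (18.5 to 23.1) in sponge and 18.2 CPM (15.2 to 21.5) in GFP, a ratio of 0.19 (-0.10 to 0.49), and RPE 22.9 CPM (19.5 to 26.8) in sponge and 21.8 CPM (18.5 to 25.5) in GFP, a ratio of 0.08 (-0.25 to 0.40). The lowest level was in ocular surface epithelium, at 10.5 CPM (8.78 to 12.4) in sponge and 10.9 CPM (8.68 to 13.6) in GFP. The ratio was above 0 in 9 classes and below 0 in 4, or in 6 with totals that leave out mitochondrial genes, with a median of 0.08. Counts were low, with 18 UMIs in sponge and 17 UMIs in GFP in pericytes and smooth muscle, where the interval ran from -1.33 to 0.76.

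Fusion genes were close between libraries in most classes. Opa1 (ENSMUSG00000038084, mm10 chr16:29579334-29654884, plus strand) was highest in bipolar cells, at 75.1 CPM (70.4 to 80.1) in sponge and 63.2 CPM (57.8 to 68.99) in GFP, and in rods, at 74.6 CPM (70.3 to 79.1) in sponge and 62.9 CPM (57.3 to 68.8) in GFP. Its ratio was 0.25 (0.09 to 0.41) in bipolar cells and 0.25 (0.09 to 0.41) in rods. Amacrine cells had 72.8 CPM (62.5 to 84.4) in sponge and 61.3 CPM (53.2 to 70.3) in GFP, a ratio of 0.25 (-0.05 to 0.54) whose interval includes 0. The levels of these 3 neuronal classes overlapped within each library. Ocular surface epithelium had the lowest level, 24.8 CPM (22.2 to 27.7) in sponge and 36.6 CPM (32.4 to 41.2) in GFP, with a ratio of -0.56 (-0.80 to -0.32), and the other 9 intervals, cones included, held 0.

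Mfn1 (ENSMUSG00000027668, mm10 chr3:32529465-32579239, plus strand), the outer-membrane mitofusin, was highest in amacrine cells. They had 78.97 CPM (68.2 to 90.96) in sponge and 50.9 CPM (43.6 to 59.1) in GFP. In GFP this interval overlapped that of cones, at 43.5 CPM (33.1 to 56.1). The amacrine ratio was 0.63 (0.33 to 0.94), the highest of all 130. It was 0.18 with cells thinned to 1000 UMIs, 0.30 with cells classed singly by marker score, and 0.55 to 0.73 under the other alternatives. Rods had 49.95 CPM (46.5 to 53.6) in sponge and 41.4 CPM (36.9 to 46.3) in GFP, a ratio of 0.27 (0.08 to 0.47), and bipolar cells 47.4 CPM (43.6 to 51.4) in sponge and 38.4 CPM (34.2 to 42.9) in GFP, a ratio of 0.30 (0.10 to 0.51). Opa1 and Mfn1 therefore both had intervals above 0 in rods and bipolar cells, though the Mfn1 ratio in rods was -0.36 under a stricter filter on cells. Mfn1 was lower in RPE, at 23.4 CPM (19.9 to 27.3) in sponge and 30.7 CPM (26.8 to 35.03) in GFP with a ratio of -0.39 (-0.69 to -0.09), and in ocular surface epithelium, with a ratio of -0.25 (-0.49 to -0.00062) that became 0.11 scaled to the median gene.

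Mfn2 (ENSMUSG00000029020, mm10 chr4:147873599-147904704, minus strand), the other mitofusin and the second gene with a seed match, had 12 of 13 ratio intervals that include 0. The exception was Gfap-low Müller glia, with 25.5 CPM (22.1 to 29.3) in sponge and 35.2 CPM (31.2 to 39.6) in GFP, a ratio of -0.47 (-0.74 to -0.20). Rods had 30.4 CPM (27.7 to 33.3) in sponge and 31.1 CPM (27.2 to 35.4) in GFP and RPE 28.4 CPM (24.6 to 32.7) in sponge and 28.6 CPM (24.8 to 32.8) in GFP, with ratios of -0.03 (-0.26 to 0.20) and -0.01 (-0.30 to 0.28). Microglia and macrophages had the lowest level in both libraries, with 18.6 CPM (14.6 to 23.4) in sponge and 19.4 CPM (14.9 to 24.9) in GFP. Its ratio was above 0 in 4 classes and below 0 in 9, and above 0 in 2 with totals that leave out mitochondrial genes.

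Dnm1l (ENSMUSG00000022789, mm10 chr16:16312230-16358959, minus strand), which encodes the fission dynamin, was highest in cones. They had 147 CPM (129 to 166) in sponge and 144 CPM (124 to 165) in GFP, a ratio of 0.03 (-0.24 to 0.31), and their interval lies above that of every other class within each library. Amacrine cells followed with 99.5 CPM (87.4 to 113) in sponge and 108 CPM (97.5 to 120.1) in GFP, bipolar cells had 91.7 CPM (86.5 to 97.2) in sponge and 102 CPM (95.4 to 109.6) in GFP and rods 90.9 CPM (86.2 to 95.9) in sponge and 96.01 CPM (89.1 to 103) in GFP. The ratio was below 0 in 11 of 13 classes, and in 13 of 13 when scaled to the median gene, with 8 intervals below 0 and none above. It was lowest in Gfap-rich Müller glia, at 68.6 CPM (64.002 to 73.4) in sponge and 96.4 CPM (86.7 to 107) in GFP with a ratio of -0.49 (-0.67 to -0.31), and in ocular surface epithelium, at 53.9 CPM (49.98 to 58.1) in sponge and 73.97 CPM (67.9 to 80.4) in GFP with a ratio of -0.46 (-0.62 to -0.29). RPE gave -0.35 (-0.53 to -0.17), melanocytes -0.35 (-0.59 to -0.11) and endothelial cells -0.43 (-0.72 to -0.14). Intervals below 0 thus covered 7 of 9 non-neuronal classes, all but fibroblasts at -0.20 (-0.43 to 0.03) and pericytes and smooth muscle at 0.09 (-0.38 to 0.56), and of the neurons only bipolar cells.

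**Figure D4:**
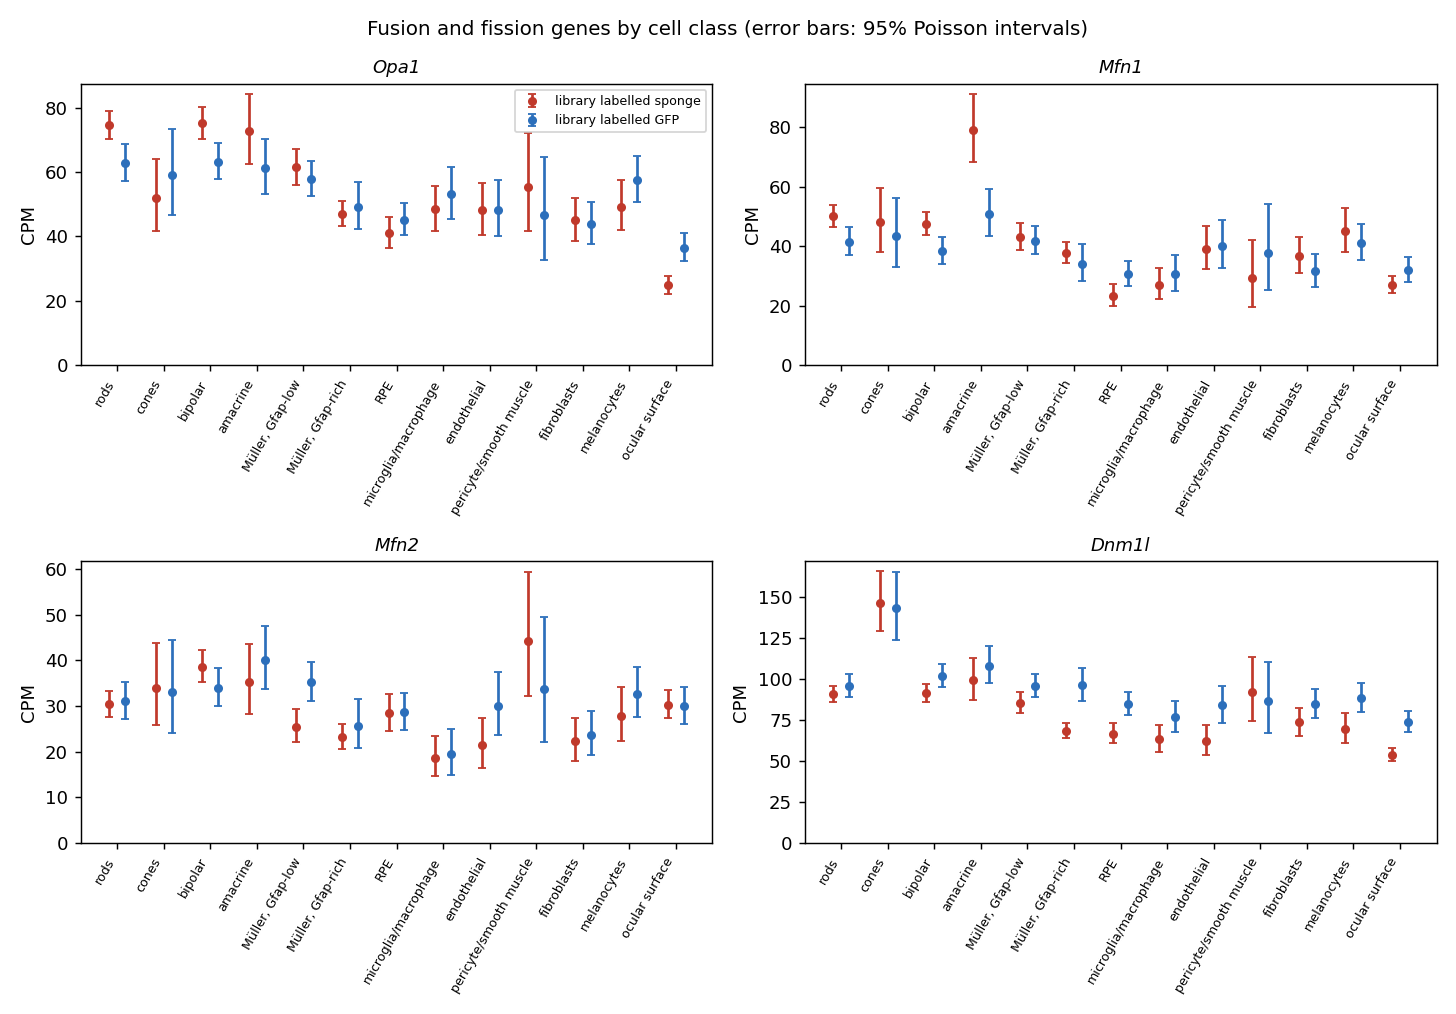
Opa1, Mfn1, Mfn2 and Dnm1l in each cell class as CPM, in the library labelled sponge (left point) and the library labelled GFP (right point), 1 library per group, with 95% Poisson intervals. Dnm1l is highest in cones at 147 CPM in sponge and 144 CPM in GFP, and Mfn1 in amacrine cells at 79.0 CPM in sponge and 50.9 CPM in GFP.

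Bnip3 (ENSMUSG00000078566, mm10 chr7:138890836-138909519, minus strand), a mitophagy receptor known to be induced by hypoxia, had ratios below 0 in 13 of 13 classes, with intervals below 0 in 11 and a median ratio of -0.60. Rods had 41.5 CPM (38.3 to 44.9) in sponge and 73.7 CPM (67.7 to 80.1) in GFP, a ratio of -0.83 (-0.996 to -0.66). Cones had 31.6 CPM (23.7 to 41.2) in sponge and 63.4 CPM (50.7 to 78.3) in GFP, a ratio of -0.9998 (-1.52 to -0.50) that lies just inside the 2-fold limit. Ocular surface epithelium had 9.23 CPM (7.65 to 11.05) in sponge and 28.7 CPM (25.02 to 32.9) in GFP, a ratio of -1.64 (-1.98 to -1.31) and the lowest of all 130. The microglia and macrophage class had 30.3 CPM (25.1 to 36.3) in sponge and 55.9 CPM (48.01 to 64.6) in GFP, with a ratio of -0.88 (-1.23 to -0.54), and fibroblasts gave -0.76 (-1.102 to -0.43). The smallest difference was in bipolar cells, at 65.95 CPM (61.5 to 70.6) in sponge and 72.7 CPM (66.9 to 78.9) in GFP with a ratio of -0.14 (-0.30 to 0.02), and the interval of pericytes and smooth muscle also included 0, at -0.30 (-0.95 to 0.34). Bipolar cells had the highest level in the library labelled sponge, and rods and bipolar cells did in the library labelled GFP. The direction was the same in all 13 classes under 5 of 8 other ways of processing and in 11 of 13 under the other 3. All 13 ratios rest on the same libraries, and the share of all genes below 0 in all 13 classes was not computed. The share of mitochondrial UMIs was lower in the same 13 classes, and over the 26 class-by-library points Bnip3 correlated with that share at r = 0.68 and Dnm1l at r = 0.69, where points of a library share its depth and free RNA.

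Bnip3l (ENSMUSG00000022051, mm10 chr14:66985239-67008877, minus strand), whose product NIX clears mitochondria in maturing red cells and lens, did not share this direction. It was highest in RPE, at 213 CPM (203 to 225) in sponge and 196 CPM (186 to 207) in GFP, with endothelial cells at 212 CPM (196 to 229) in sponge and 182 CPM (166 to 199.8) in GFP, and lowest in amacrine cells at 83.9 CPM (72.8 to 96.2) in sponge and 123 CPM (111 to 135) in GFP. Retinal neurons had less in the library labelled sponge, with ratios of -0.55 (-0.80 to -0.31) in amacrine cells, -0.35 (-0.46 to -0.24) in rods and -0.19 (-0.30 to -0.07) in bipolar cells. Cones gave -0.31 (-0.62 to 0.01). Ocular surface epithelium had 186 CPM (179 to 194) in sponge and 145 CPM (136 to 154) in GFP, a ratio of 0.36 (0.26 to 0.47), in the class where Bnip3 was lowest. Intervals also lay above 0 in endothelial cells, RPE and both Müller clusters, where ratios ran from 0.12 to 0.21. Bnip3l and Bnip3 thus had intervals on opposite sides of 0 in ocular surface epithelium, RPE, endothelial cells and both Müller clusters.

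Fundc1 (ENSMUSG00000025040, mm10 chrX:17556564-17572325, minus strand), an outer-membrane receptor for mitophagy under hypoxia, was highest in Müller glia. The Gfap-rich cluster had 66.7 CPM (62.2 to 71.4) in sponge and 65.8 CPM (57.8 to 74.6) in GFP, and the Gfap-low cluster 63.6 CPM (58.2 to 69.5) in sponge and 60.9 CPM (55.6 to 66.6) in GFP, with ratios of 0.02 (-0.19 to 0.23) and 0.06 (-0.12 to 0.25). The intervals of melanocytes overlapped with theirs in both libraries, at 56.99 CPM (49.1 to 65.8) in sponge and 61.8 CPM (54.7 to 69.6) in GFP. Rods had 25.3 CPM (22.8 to 27.9) in sponge and 39.4 CPM (35.02 to 44.2) in GFP, a ratio of -0.64 (-0.86 to -0.42), and RPE 33.8 CPM (29.6 to 38.4) in sponge and 46.2 CPM (41.3 to 51.4) in GFP, a ratio of -0.45 (-0.70 to -0.21). The ratio was below 0 in 10 of 13 classes, and in 13 of 13 when scaled to the median gene, with intervals below 0 in rods, bipolar cells, RPE and ocular surface epithelium, and none lay above 0.

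Pink1 (ENSMUSG00000028756, mm10 chr4:138313409-138326307, minus strand), the kinase that accumulates on damaged mitochondria, was highest in melanocytes. They had 146 CPM (133 to 160.1) in sponge and 116 CPM (106 to 126) in GFP, a ratio of 0.34 (0.15 to 0.52). RPE had 95.1 CPM (87.98 to 103) in sponge and 76.6 CPM (70.3 to 83.3) in GFP, a ratio of 0.31 (0.15 to 0.48). Neither direction held throughout: with cells thinned to 1000 UMIs the RPE ratio was -0.34, and with cells classed singly by marker score the melanocyte ratio was -0.06. The microglia and macrophage class had 42.6 CPM (36.3 to 49.5) in sponge and 63.6 CPM (55.2 to 72.9) in GFP, with the lowest ratio of -0.58 (-0.88 to -0.28). Rods had 61.3 CPM (57.4 to 65.4) in sponge and 73.4 CPM (67.4 to 79.8) in GFP, a ratio of -0.26 (-0.41 to -0.11), and intervals were also below 0 in bipolar cells, Gfap-low Müller glia, where the ratio was 0.12 with cells classed by marker score, and ocular surface epithelium. Of the 13 classes, only rods had intervals below 0 for all 4 mitophagy genes. The ratios of all 4 were also below 0 in cones, bipolar cells, amacrine cells and the microglia and macrophage class, where some intervals included 0. Intervals narrow with counts, and in the library labelled sponge rods had 15154537 UMIs against 1708823 UMIs in cones.

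**Figure D5:**
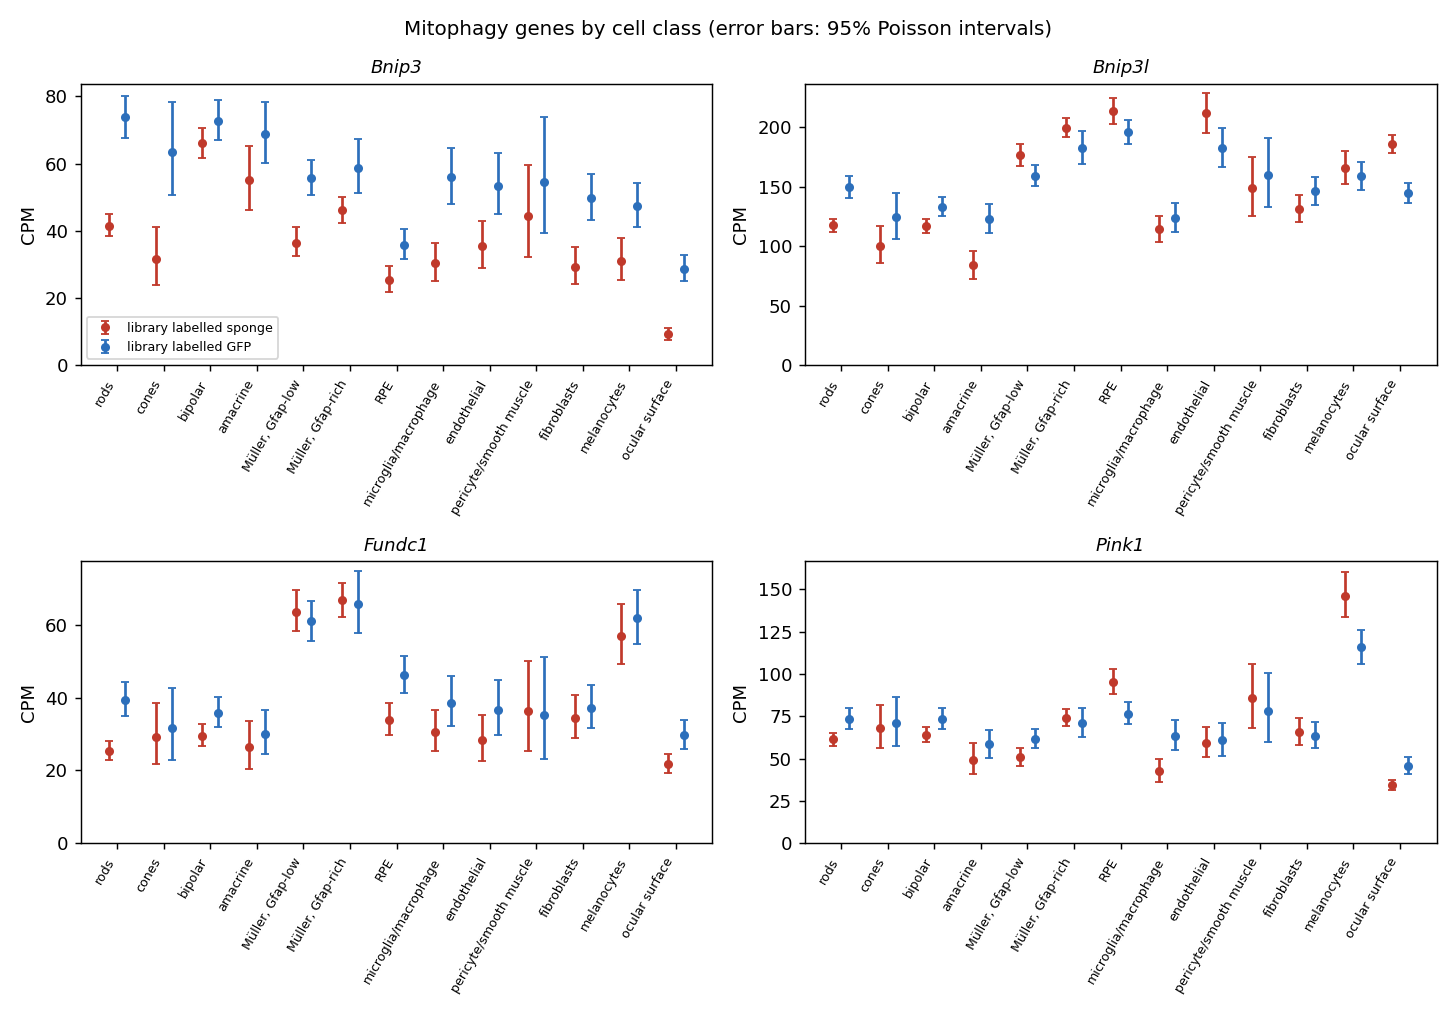
Bnip3, Bnip3l, Fundc1 and Pink1 in each cell class as CPM, in the library labelled sponge (left point) and the library labelled GFP (right point), 1 library per group, with 95% Poisson intervals. In all 13 classes Bnip3 is lower in the library labelled sponge, Fundc1 stands highest in Müller glia and Pink1 in melanocytes.

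Within a class the genes did not move together. In rods, Ppargc1a, Opa1 and Mfn1 had intervals above 0 whereas Pink1, Bnip3, Bnip3l and Fundc1 had intervals below 0, and the intervals of Tfam, at 0.19 (-0.10 to 0.49), and Mfn2, at -0.03 (-0.26 to 0.20), included 0. Of these, Mfn1 changed sign under the stricter filter on cells, and Opa1 was at -0.0019 with cells classed singly by marker score. The 30 other mitophagy genes had a median ratio of 0.10 in rods, near the 0.08 of all rod genes, whereas these 4 were below 0. In RPE, the target of a subretinal injection, Pink1 and Bnip3l had intervals above 0, and Ppargc1a, Bnip3, Fundc1, Mfn1 and Dnm1l below 0. Of these, 3 changed sign under an alternative: Pink1 was -0.34 with cells thinned to 1000 UMIs, Bnip3 was 0.07 with cells weighted equally, and Ppargc1a was 0.02 scaled to the median gene. The median over the 10 genes was -0.06 in rods and -0.16 in RPE, against 0.08 and -0.20 for all genes of those classes. It was lowest in ocular surface epithelium, at -0.44 against -0.36, and in endothelial cells, at -0.27 against 0.02.

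Across the 26 class-by-library points, which share libraries, depth and free RNA, levels of some of these genes followed each other as log2 values. Bnip3 followed Opa1 (r = 0.77), Opa1 followed Mfn1 (r = 0.70), and Ppargc1a followed Pink1 (r = 0.71). Bnip3l ran against Mfn1 (r = -0.55). The summed level of 92 nuclear respiratory chain genes followed Pink1 (r = 0.66) and Ppargc1a (r = 0.59). Of all genes reaching 20 CPM in a class, those most like Ppargc1a were Slc24a5 (r = 0.89), a pigment cell exchanger, Atp11a (r = 0.89) and Ss18l2 (r = 0.87). Those most like Pink1 were Mrps36 (r = 0.87), 1700021F05Rik (r = 0.84) and Cystm1 (r = 0.83). Bnip3 was most like Dpysl2 (r = 0.91), a neuronal collapsin response mediator, Magee1 (r = 0.89) and Matr3 (r = 0.89). Bnip3l was most like Chmp5 (r = 0.91), an ESCRT subunit, and H1f0 (r = 0.82). Fundc1 was most like Nxt2 (r = 0.87), Fxyd1 (r = 0.87) and Fkbp11 (r = 0.86), and Tfam like Tm7sf3 (r = 0.85), Cnep1r1 (r = 0.82) and Pura (r = 0.80). Opa1 was most like Eri3 (r = 0.92), Zfp318 (r = 0.92) and Shprh (r = 0.90), and Mfn1 like Smc5 (r = 0.89), Ythdc2 (r = 0.89) and Ubn2 (r = 0.87). Dnm1l was most like Ndufaf5 (r = 0.91), an assembly factor of complex I, Cep19 (r = 0.90) and Akap11 (r = 0.90). Mfn2 had no close match, with Sdr39u1 (r = 0.69), Qsox2 (r = 0.68) and Nrip2 (r = 0.68) leading.

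The other genes of these pathways, 88 in 5 lists, also showed few large differences. Of their 1106 measured gene-by-class values, 8 (0.723%) were at least 2-fold higher in the library labelled sponge, against 3.57% of all genes, and 28 (2.53%) at least 2-fold lower, against 9.40%. The median ratio of the 88 genes was 0.05, against 0.01 for all genes, and here too the sets were not matched for counts. By list, 2 values were higher and 8 lower among the 22 other biogenesis genes, 2 and 0 among 14 fusion and inner membrane genes, 1 and 9 among 15 fission genes, 0 and 5 among 7 transport genes and 3 and 6 among 30 mitophagy genes. The biogenesis list had a median ratio of 0.02 over all classes. Its highest class median was 0.40 in rods, against 0.08 for all rod genes, and its lowest -0.33 in melanocytes, against -0.07. Nrf1, a transcription factor of biogenesis reported as a miR-181 target, held no seed match in its longest annotated 3' UTR. It had 111 CPM in sponge and 78.8 CPM in GFP in rods, a ratio of 0.50 (0.36 to 0.64), and a ratio of -0.62 (-0.88 to -0.36) in RPE.

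Tomm7, a small subunit of the outer-membrane import complex on which PINK1 accumulation depends, had ratios below 0 in 13 of 13 classes. Rods had 77.4 CPM in sponge and 163 CPM in GFP, a ratio of -1.07 (-1.19 to -0.95). Amacrine cells had 44.8 CPM in sponge and 123 CPM in GFP, a ratio of -1.45 (-1.77 to -1.15), and RPE 144 CPM in sponge and 208 CPM in GFP, a ratio of -0.53 (-0.65 to -0.42). Tomm7 was at least 2-fold lower in 4 classes, and its median ratio was -0.81. Like Bnip3, it thus had 1 direction in all 13 classes. This also held when scaled to the median gene or with totals that leave out mitochondrial genes. Other ways of processing are not given for Tomm7, which was named for its low ratios in these data. The share of all genes with 1 direction in all 13 classes was not computed.

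Gdap1, a fission factor of neurons, was at least 2-fold lower in 6 classes, none of them neuronal. RPE had 4.19 CPM in sponge and 16.2 CPM in GFP, a ratio of -1.93 (-2.59 to -1.35), and ocular surface epithelium -1.67 (-2.15 to -1.21). Bipolar cells had 72.8 CPM in sponge and 60.9 CPM in GFP, a ratio of 0.26 (0.10 to 0.42), and cones and amacrine cells had the same sign with intervals that include 0. The other 10 classes were below 0, rods among them at 18.1 CPM in sponge and 26.04 CPM in GFP, a ratio of -0.53 (-0.80 to -0.25). Snph, an anchor of axonal mitochondria, had 0.85 (0.64 to 1.06) in bipolar cells and -1.79 (-2.49 to -1.17) in RPE. The part of free RNA from neurons in these values was not tested.

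Other pathway genes, named for their high ratios in a class of these data, had ratios above 0. The share of all genes above 0 in all 13 classes was not computed. Phb2, a prohibitin of the inner membrane and mitophagy receptor, was above 0 in 13 of 13 classes with a median ratio of 0.56, and had 58.1 CPM in sponge against 27.2 CPM in GFP in the microglia and macrophage class, a ratio of 1.09 (0.74 to 1.47). Fkbp8, an outer-membrane mitophagy receptor, was also above 0 in 13 of 13, and both counts were the same under the other 2 scalings, with a ratio of 0.82 (0.62 to 1.03) in RPE. Sqstm1, the autophagy adaptor p62, had 0.41 (0.31 to 0.50) in Gfap-rich Müller glia and 0.64 (0.47 to 0.82) in endothelial cells, and Map1lc3a, an LC3 gene, 0.98 (0.85 to 1.104) in fibroblasts. Chchd3, a cristae junction subunit, had 367 CPM in rods of the library labelled sponge and 222 CPM in rods of the library labelled GFP, a ratio of 0.73 (0.65 to 0.81). Gabarap gave 0.76 (0.65 to 0.87) in melanocytes, whereas its paralog Gabarapl1 gave -1.04 (-1.24 to -0.84) in Gfap-low Müller glia. Ppargc1b, the paralog of Ppargc1a, was -1.11 (-1.47 to -0.77) in fibroblasts and below 0 in 10 of 13 classes. Fundc2, the paralog of Fundc1, was below 0 in 11 of 13, with -0.52 (-0.66 to -0.38) in rods. Of the 88 genes, 17 (19.3%) held a seed match, against 16.3% of all protein-coding genes with a 3′ UTR, among them Gdap1, Sqstm1, Polg, Bcl2l13, Armcx3 and Prkaa2.

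RPE cells with the eGFP sequence in the library labelled sponge gave a comparison inside 1 library. The 148 RPE cells with an eGFP UMI had a median of 19044.5 UMIs and the 326 without had 2508.5 UMIs, so the cells compared differ in depth. Ppargc1a stood at 214 CPM (199 to 230.4) in cells with eGFP and 231 CPM (216 to 247) in cells without. Bnip3 stood at 25.5 CPM (20.4 to 31.6) in cells with it and 25.3 CPM (20.4 to 31.0) in cells without, and Tfam at 22.5 CPM (17.7 to 28.2) with and 23.3 CPM (18.6 to 28.9) without. Mfn2 was the 1 gene of the 10 whose ratio interval excluded 0, against 21.2% of 12231 measured genes, at 23.7 CPM (18.8 to 29.6) in cells with eGFP and 32.8 CPM (27.1 to 39.3) in cells without, a log2 ratio of -0.46 (-0.90 to -0.04). Cells of 1 library are not replicates, and a cell without an eGFP UMI may still carry the vector.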

How the data were processed

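Unique molecular identifier (UMI) counts per gene and cell barcode were measured in 1 library per group, and the deposited matrices hold whole-number counts that the authors had not normalized. The submitters' processing notes name Cell Ranger 7.0.0 and mm10, and the sources used here do not give how intronic reads were counted. Cells were kept with 300 genes or more, 500 UMIs or more and no more than 25% mitochondrial UMIs. Scrublet (scanpy 1.11.5) marked 0 doublets in both libraries, so the caller had not worked and none were removed. Both libraries were clustered together without batch correction (2000 variable genes, 30 principal components, 15 neighbours, Leiden resolution 1, leidenalg 0.10.2), giving 30 clusters. A cluster was named where at least 3 markers of a class were 2-fold over the median cluster, its marker score was at least 0.5, and no unrelated class reached 0.5 of that score or led its top 10 genes. This rule was set after the clusters were seen, and a cluster that failed it stayed unnamed.

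Counts of each class were summed within a library and divided by the class total to give CPM. Log2 ratios, sponge over GFP, add 0.5 to each count and were called at 2-fold. Genes needed 20 counts over both libraries. The calculation was tested on simulated data. Of the other pathway genes, the 2 highest and 2 lowest per class were named, ordered by the bound of the interval closest to 0 in genes of 50 counts or more, and values of a named gene are also given in other classes. Nrf1 was added by hand for its reported link to miR-181. For each of the 10 genes, the 3 most correlated genes over log2(CPM + 1) were named, and some genes these rules name are not reported here. The 10 genes and the lists were chosen with earlier results of these data known.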

Additional observations from a re-analysis of the deposited data

Results flagged for a closer look

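The eGFP sequence, which is outside the main comparison, had 5484 counts in the library labelled sponge, against 12 in the library labelled GFP.

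For 5 of the 10 genes the log2 ratio of sponge over GFP had a 95% counting interval above 0 in 1 class or more and below 0 in another. The extremes were 0.50 in melanocytes and -1.44 in ocular surface epithelium for Ppargc1a, and 0.34 in melanocytes and -0.58 in the microglia and macrophage class for Pink1. For Bnip3l they were 0.36 in ocular surface epithelium and -0.55 in amacrine cells, for Opa1 0.25 in bipolar cells and -0.56 in ocular surface epithelium, and for Mfn1 0.63 in amacrine cells and -0.39 in RPE. With 1 library per group, the difference between classes was not tested. The share of all genes with intervals on both sides of 0 was not computed. Of all measured gene-by-class values, 21.3% had intervals above 0 and 22.4% below 0.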

How the results depend on the processing

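No paired analysis was possible because each group holds 1 library and its cells are not assigned to mice. The 0 values at least 2-fold higher became 1 with cells thinned to 1000 UMIs, where 4.43% of all genes were called. The 4 values at least 2-fold lower became 9 under a stricter filter on cells (1000 UMIs or more and no more than 10% mitochondrial UMIs), where 10.1% of all genes were called. At 1.5-fold, 1 value was higher and 14 lower, against 12.7% and 19.3% of all genes. The median stayed between -0.21 and -0.08. Of the 4 called values, Ppargc1a in fibroblasts was called in 8 of 8 alternatives, and each of the others in 7 of 8. Signs were kept by 89 of 127 ratios under thinning, 101 of 130 with cells classed singly by marker score, and 109 to 126 of 130 under the other 6. Of the 59 ratios whose interval excluded 0, 12 changed sign in at least 1 of 8 alternatives. Thinning turned Pink1 in RPE to -0.34, Bnip3 in endothelial cells to 0.06, Bnip3l in Gfap-low Müller glia to -0.09, Dnm1l in microglia and macrophages to 0.14 and Mfn1 in ocular surface epithelium to 0.42. Classing cells by marker score turned Pink1 in melanocytes to -0.06 and in Gfap-low Müller glia to 0.12, Bnip3 in melanocytes to 0.12 and Opa1 in rods to -0.0019. In RPE, Ppargc1a was 0.02 scaled to the median gene and -0.93 with cells weighted equally, and Bnip3 was 0.07 with cells weighted equally. Mfn1 was -0.36 in rods under the stricter filter and 0.11 in ocular surface epithelium scaled to the median gene. The cause was not tested. In rods, cones and melanocytes Ppargc1a stayed above 0 under all 8. Pericytes and smooth muscle, with 200 cells in sponge and 350 in GFP, gave the fewest counts.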
